A study of Mus musculus with 6 samples.

Results

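PPS-ICBR is a line of mouse prostate cancer cells that withstands immune checkpoint blockade. Mice that carried PPS-ICBR tumours ate either standard chow (the SD group) or a food mixed with 1,3-butanediol (the BD group), and neither group received antibodies. The comparison took every cell of the deposited table whose treatment was listed as SD or BD, which gave 1705 of 5749 cells. The SD group held 1215 cells from 3 tumours and the BD group 490 cells from 3 tumours. All mice were C57Bl6. To make the BD food, 198 g of chow was mixed with 80 mL of butanediol in 120 mL of water, sweetened with 2 g of saccharine. Tumours of both groups were dissociated in the same way and the leukocyte layer of a Percoll gradient was collected, so cell shares describe that layer and not the whole tumour. The 6 suspensions were tagged with hashtag antibodies, pooled and measured as 1 droplet-based single-cell RNA library. The 6 further tumours of the series, which received blockade on either diet in another library, entered only the estimate of the spread between tumours and 1 test of the difference between diet effects. The 3 tumours of a group are told apart in the labels, but the mice they came from are not, so p-values measure the spread between these tumours.

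The body turns 1,3-butanediol into β-hydroxybutyrate, the main circulating ketone body, without the need to restrict carbohydrate. Cells take up β-hydroxybutyrate through monocarboxylate transporters and burn it in mitochondria with the enzymes Bdh1, Oxct1 and Acat1. The same molecule binds the cell surface receptor Hcar2, which is found on neutrophils and other myeloid cells, and at high concentrations it inhibits histone deacetylases. In tumours, neutrophils and macrophages can restrain T cells, and a macrophage that expresses the arginine-splitting enzyme Arg1 is one known form of this. The question behind the series is whether raised ketone bodies alter how such tumours resist immunotherapy, and the comparison without blockade covers the diet alone.

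Each tumour was identified by the 15-base barcode on its hashtag antibody, and these barcodes are shown because they are the sole link between a cell and its diet. In capitals are the complete barcodes, 5′ to 3′.
SD tumour 1: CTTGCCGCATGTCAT
SD tumour 2: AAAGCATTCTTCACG
SD tumour 3: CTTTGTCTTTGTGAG
BD tumour 1: TATGCTGCCACGGTA
BD tumour 2: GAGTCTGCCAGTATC
BD tumour 3: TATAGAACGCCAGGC
Any pair of these barcodes differed at 7 to 13 positions. Hashtag and diet go together, so a property of a hashtag and an effect of the diet cannot be told apart. The median hashtag count per deposited cell was 1632.5, 1504.5 and 1616 in the SD tumours and 795, 677 and 758 in the BD tumours. Deposited cells all had more than 500 hashtag counts. Droplets were therefore also assigned here without that limit, by a top hashtag of at least 10 counts and 3 times the second, and given the class of their nearest deposited neighbours. Of these droplets, 32.4% to 45.8% per tumour lay above it in the SD group and 38.0% to 43.0% in the BD group. Cell types differed in this. Deposited neutrophils had median hashtag counts of 1691, 1518 and 1680 in the SD tumours and 538, 552 and 582 in the BD tumours. They numbered 107, 110 and 223 in SD and 15, 28 and 19 in BD tumours. With the limit lifted the numbers were 94, 110 and 209 and 67, 83 and 31. The part of the limit in the shares below was not tested.

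The groups also differed in tumour size and depth. The deposited table lists tumour sizes, in a unit it does not give, of 2348, 1216 and 870 in the SD group and 178, 203 and 172 in the BD group. SD tumours gave 278 to 521 cells and 2562087 to 4825749 UMIs (counted RNA molecules), and BD tumours 70 to 303 cells and 510984 to 2460592 UMIs. BD tumour 2 was the shallowest with 70 cells. Of the 1705 cells, 27 carried a barcode that also occurred in the other library, and 23 of these had more UMIs in their own library.

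Macrophages took a larger share of the cells in every BD tumour than in any SD tumour. They made up 34.6%, 27.7% and 31.9% of cells in the SD tumours and 62.1%, 47.1% and 61.5% in the BD tumours, or 31.4% ± 3.48 against 56.9% ± 8.46 (s.d., n = 3). The difference was 25.5 percentage points, with a two-sided exact permutation p of 0.1, the smallest that 3 tumours against 3 can give, and an adjusted p of 0.3 over 9 compartments. Cells of the class named mesenchymal in the deposited table made up 11.5%, 14.0% and 10.9% in the SD tumours and 2.64%, 2.86% and 0.855% in the BD tumours. The label does not say whether these are stromal or cancer cells, and this was not tested. Proliferating cancer cells stood at 4.33%, 3.24% and 2.50% and at 0.660%, 0% and 0%. Both lay lower in all 3 BD tumours without overlap (exact permutation p = 0.1, adjusted p = 0.3 each). A count of 0 among 70 and 117 cells allows a cancer cell share of up to 4.29% and 2.56% by counting error alone.

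Neutrophil shares overlapped between the diets. Neutrophils made up 25.7%, 39.6% and 42.8% of cells in the SD tumours and 4.95%, 40.0% and 16.2% in the BD tumours, a difference of -15.6 points (exact permutation p = 0.3, adjusted p = 0.54). BD tumour 2 alone reached the SD range. T cells stood at 3.46% to 3.61% in the SD tumours and at 7.59%, 1.43% and 2.56% in the BD tumours, which lay on both sides of the SD values. Dendritic cells stood at 1.80% to 4.09% and at 12.2%, 0% and 6.84%, NK cells at 1.15% to 5.05% and at 2.64%, 0% and 2.56%, and monocytes at 1.34% to 3.60% and at 2.31% to 4.27%. The diets overlapped in each of these 3 compartments.

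**Figure D1:**
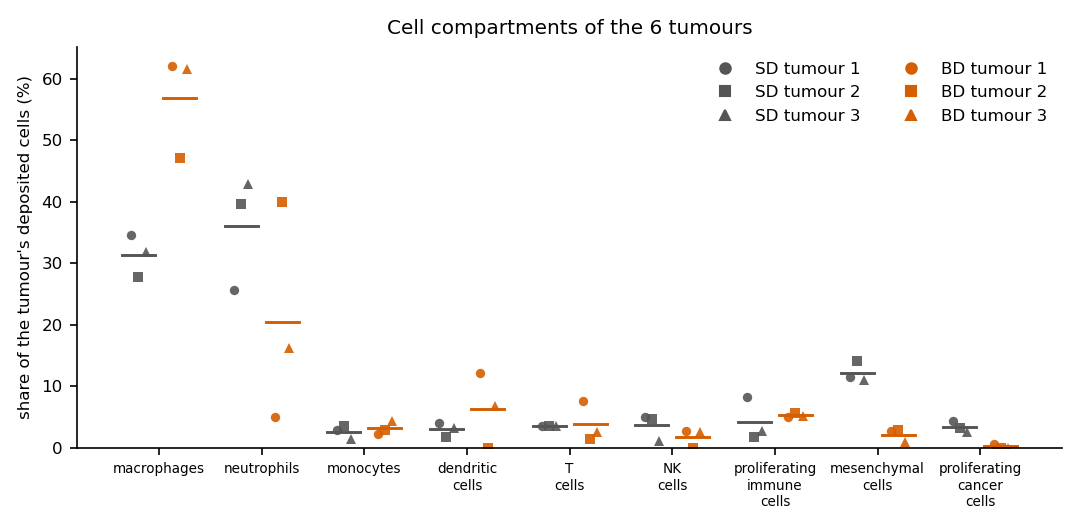
Share of each tumour's deposited cells (percent, vertical axis) in 9 compartments for the SD and BD tumours, 1 point per tumour with the group mean as a line. Macrophages lie higher in all 3 BD tumours, and mesenchymal and proliferating cancer cells lie lower in all 3.

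EdgeR's quasi-likelihood test was also run on cell numbers relative to the tumour's total, so it too compared shares, with all 4 groups fitted. In this test mesenchymal cells (log2 fold change -2.48, adjusted p = 0.00571) and proliferating cancer cells (-3.03, adjusted p = 0.00871) fell, and macrophages did not pass (0.86, adjusted p = 0.17). Among 19 classes it called 5. The neutrophils that carry interferon-induced Ifit genes (-5.63), mesenchymal cells (-2.49) and proliferating cancer cells (-3.05) fell, and the macrophage class named M1 in the deposited table (2.01) and the metalloproteinase-expressing Mmp+ M2 class (1.87) rose (edgeR adjusted p = 0.0357 each). With the limit of 500 hashtag counts lifted, mesenchymal cells made up 53.2%, 41.3% and 52.0% of SD and 27.1%, 16.2% and 26.0% of BD droplets, still without overlap. Proliferating cancer cells then stood at 12.05%, 7.34% and 7.23% against 8.94%, 4.47% and 5.04%. Here the diets overlapped, with a difference of -2.72 points (exact permutation p = 0.3). Macrophages then stood at 17.8%, 24.3% and 17.1% against 35.2%, 26.3% and 41.5%. Among deposited immune cells alone, macrophages made up 37.1% ± 3.84 in SD and 58.3% ± 8.49 in BD tumours (s.d., n = 3), a difference of 21.1 points without overlap (exact permutation p = 0.1, adjusted p = 0.7). Among immune cells with the hashtag limit lifted, they stood at 51.2%, 47.4% and 41.9% against 55.1%, 33.1% and 60.1%, where the diets overlapped and the difference was 2.60 points. Shares of 1 compartment move with those of the others, and the share among immune cells does not depend on mesenchymal or proliferating cancer cells.

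The make-up of the macrophages themselves differed. Mmp+ M2 macrophages held 9.72%, 19.5% and 12.7% of the macrophages in the SD tumours and 26.1%, 33.3% and 23.6% in the BD tumours, so that each BD tumour lay above each SD tumour (exact permutation p = 0.1, adjusted p = 0.233 over 7 classes). Trem2+ M2 macrophages, named for a lipid-sensing receptor, held 59.0%, 70.1% and 69.9% against 40.4%, 60.6% and 45.8%, with BD tumour 2 inside the SD range (adjusted p = 0.28). The class named M1 held 11.1%, 5.20% and 6.63% against 23.9%, 3.03% and 19.4%, which overlapped. Within neutrophils, the Hilpda+ class, named for a lipid droplet gene induced by low oxygen, held 25.2%, 33.6% and 36.3% against 46.7%, 46.4% and 36.8%. BD tumours 1 and 2 lay well above and BD tumour 3 just above the highest SD tumour. With the hashtag limit lifted, the difference between the diets in this class was 1.29 points.

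Gene levels were first compared in all macrophages as one, where 8728 genes were tested on UMIs summed per tumour. No gene passed an adjusted p of 0.05 by edgeR's quasi-likelihood test (0% called), with 424 genes higher (4.86%) and 459 lower (5.26%) in BD at an unadjusted p under 0.05, and DESeq2 called 36. With the replicate number as a block, edgeR called 6 genes. The labels do not pair tumours of the same number, so blocked calls rest on a pairing seen in these same data. Levels below are normalised CPM, UMIs scaled to the tumour's macrophage total and by TMM factors, and fold changes are log2 BD over SD with standard errors. In 550 genes (6.3%) every BD tumour lay above every SD tumour, and in 660 (7.56%) every BD tumour lay below.

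Arg1 (chr10:24915207-24927470, GRCm38.p6), which splits arginine and is a defining gene of alternatively activated and suppressive macrophages, lay higher in every BD tumour. It stood at 368, 745 and 847 normalised CPM in the SD tumours and at 2586, 2205 and 2699 in the BD tumours, or 653 ± 252 against 2497 ± 259 (s.d., n = 3). The lowest BD tumour lay well above the highest SD tumour. The log2 fold change was 1.94 ± 0.42 with an edgeR adjusted p of 0.213. It was positive under all 26 alternatives, from 1.42 to 2.17, with adjusted p-values from 3.9e-05 (DESeq2, the sole alternative that called it) to 0.476. Without the Mmp+ class the fold change was 1.87. In Trem2+ M2 macrophages Arg1 stood at 197, 243 and 464 against 1264, 1107 and 1867 normalised CPM (2.22 ± 0.57, edgeR adjusted p = 0.777). In Mmp+ M2 macrophages it stood at 1929, 1895 and 3321 against 5485, 3851 and 4980 (1.00 ± 0.23, edgeR adjusted p = 0.216).

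Of the 14 tested suppressive myeloid genes, 11 had positive fold changes in merged macrophages, with a median of 0.37, where 4313 of all 8728 genes were positive and their median was -0.00. Il10, an anti-inflammatory cytokine, stood at 54.6, 35.5 and 25.6 normalised CPM in the SD tumours and at 121, 62.8 and 120 in the BD tumours (1.46 ± 0.47, edgeR adjusted p = 0.357). Vegfa, the growth factor for blood vessels, stood at 202, 253 and 231 against 429, 272 and 473 (0.80 ± 0.24, edgeR adjusted p = 0.281). Every BD tumour exceeded every SD tumour for both, BD tumour 2 by the smallest margin. Ptgs2, the inducible cyclooxygenase of prostaglandin synthesis, stood at 275, 408 and 190 against 836, 317 and 696, where BD tumour 2 fell inside the SD range. The checkpoint ligand Cd274 (PD-L1) stood at 87.1, 42.9 and 32.7 against 123, 59.8 and 43.6, and the diets overlapped.

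Genes of sugar use and low oxygen were mostly positive in merged macrophages. Of 16 glycolysis genes 15 were positive (median 0.26) and of 13 hypoxia genes 12 (median 0.50). Hk2, the hexokinase that traps glucose in the cell, stood at 84.9, 76.9 and 63.4 normalised CPM in the SD tumours and at 132, 95.7 and 120 in the BD tumours (0.66 ± 0.17, edgeR adjusted p = 0.207). Pgk1, an enzyme further down the pathway, stood at 501, 544 and 607 against 864, 760 and 698 (0.49 ± 0.15). The glucose transporter Slc2a1 stood at 112, 101 and 85.2 against 165, 138 and 123 (0.54 ± 0.18). In these 3 genes the groups did not overlap. At an unadjusted p under 0.05, 6 glycolysis genes and 4 hypoxia genes were higher and none was lower. Glycolysis was not higher in each class, with 13 of 16 genes positive in Trem2+ (median 0.16), 8 of 16 in M1 and 3 of 16 in Mmp+ macrophages (median -0.18). Hypoxia genes were positive in 9 of 11 in Trem2+ (median 0.30), 7 of 12 in M1 (median 0.13) and 2 of 13 in Mmp+ macrophages (median -0.16). The difference between classes was not tested.

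The antioxidant and lipid lists were also mostly positive in merged macrophages, with 12 of 13 (median 0.32) and 11 of 15 genes (median 0.39). By class, antioxidant genes were positive in 10 of 13 in Mmp+ (median 0.30), 8 of 13 in Trem2+ (median 0.09) and 6 of 13 in M1 macrophages (median -0.04). Lipid genes were positive in 9 of 15 (median 0.38), 8 of 12 (median 0.12) and 3 of 12 (median -0.31) in the same order. These differences between classes were not tested. Hmox1, which degrades haem and is induced by oxidative stress, stood at 414, 615 and 743 normalised CPM in the SD tumours and at 860, 1690 and 2039 in the BD tumours. BD tumour 1 lay just above the highest SD tumour and the other BD tumours far above it. The log2 fold change was 1.37 ± 0.35 (edgeR adjusted p = 0.278), and with the replicate block it was 1.34 and passed (edgeR adjusted p = 0.0043, range 0.00388 to 0.884 over 26 alternatives). Without the Mmp+ class the fold change was 0.15. Gclc, which limits the synthesis of glutathione, stood at 26.6, 25.1 and 28.2 against 46.9, 59.8 and 74.8 (1.14 ± 0.27, edgeR adjusted p = 0.194), with a narrow range in SD and no overlap. Abca1, the exporter of cholesterol, stood at 262, 379 and 377 against 530, 739 and 587 (0.86 ± 0.21, edgeR adjusted p = 0.194). All BD tumours again lay above all SD tumours. Of the metalloproteinase list 9 of 9 genes were positive (median 0.61), and Adam8, a membrane metalloproteinase of leukocytes, stood at 241, 390 and 372 against 461, 598 and 476. This list overlaps with the genes that name the Mmp+ class, whose share differed.

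Genes of the respiratory chain lay lower in BD macrophages. Of 20 nuclear-encoded genes of oxidative phosphorylation 1 was positive (median -0.21), and of 13 mitochondrially encoded genes 2 (median -0.14). Sdhb, the iron-sulphur subunit of complex II, stood at 154, 145 and 117 normalised CPM in the SD tumours and at 77.4, 77.8 and 84.8 in the BD tumours (-0.79 ± 0.18, edgeR adjusted p = 0.193). Uqcrc1, a core subunit of complex III, stood at 87.9, 82.8 and 98.0 against 63.2, 65.8 and 63.6 (-0.50 ± 0.21, edgeR adjusted p = 0.423). The BD tumours were closely grouped below the SD tumours for both. Fatty acid oxidation had 3 of 14 genes positive (median -0.21), with Acadl, which starts the breakdown of long-chain fatty acids, at 55.4, 65.1 and 53.2 against 40.9, 44.9 and 36.2. Oxidative phosphorylation kept a negative median under the alternatives run, from -0.24 to -0.14.

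Antigen presentation and interferon genes were mostly negative in merged macrophages. None of 9 MHC class II genes was positive (median -0.48), 2 of 13 MHC class I genes (median -0.17) and 2 of 17 type I interferon genes (median -0.50). H2-DMa, which loads peptides on class II molecules, stood at 360, 308 and 256 normalised CPM in the SD tumours and at 234, 177 and 178 in the BD tumours (-0.63 ± 0.19, edgeR adjusted p = 0.281). Psmb8, a subunit of the immunoproteasome, stood at 411, 290 and 287 against 247, 177 and 211 (-0.62 ± 0.18, edgeR adjusted p = 0.231), and Bst2, an interferon-induced membrane protein, at 491, 461 and 398 against 323, 314 and 288 (-0.54 ± 0.15, edgeR adjusted p = 0.228). The diets did not overlap in any of these. The MHC class I median turned to 0.084 without SD tumour 1, and the interferon-gamma median (-0.21, 4 of 15 genes positive) turned to 0.56 with 13 of 15 positive. SD tumour 1 had the highest Cxcl9, a T cell chemokine induced by interferon-gamma, at 486 normalised CPM against 4.44 and 57.7 in the other SD tumours and 178, 0 and 57.4 in the BD tumours. By class, 2 of 8 MHC class II genes were positive in Trem2+ macrophages (median -0.15). Mmp+ macrophages had 1 of 8 (median -1.02) and M1 macrophages 0 of 9 (median -0.62). For MHC class I, 6 of 13 (median -0.05), 3 of 12 (median -0.11) and 2 of 13 (median -0.34) were positive in that order. For interferon-gamma genes, 8 of 14 (median 0.09), 8 of 13 (median 0.20) and 5 of 15 (median -0.40) were positive likewise. These differences between classes were not tested.

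Further genes lay apart outside these lists. Nus1, a subunit of the enzyme that makes dolichol for glycosylation, had the smallest adjusted p of all genes. It stood at 93.8, 97.6 and 108 normalised CPM in the SD tumours and at 177, 162 and 198 in the BD tumours (0.85 ± 0.14, edgeR adjusted p = 0.084). It passed with the replicate block at an edgeR adjusted p of 0.0218, and its range over 26 alternatives was 0.000184 to 0.305. Grina, a membrane protein that restrains cell death, stood at 192, 253 and 213 against 468, 416 and 306 (0.86 ± 0.16, edgeR adjusted p = 0.161, with the block 0.0199, range 0.000151 to 0.611). The groups were separate in both genes. On the lower side, Cd52, a small surface glycoprotein of leukocytes, stood at 2107, 2010 and 1812 against 1398, 1182 and 1233 (-0.63 ± 0.13), Fcgr1, a high-affinity receptor for antibodies, at 249, 253 and 240 against 171, 123 and 152 (-0.70 ± 0.15), and Cst3, a protease inhibitor, at 2236, 2276 and 2060 against 1280, 1556 and 1551 (-0.58 ± 0.13; edgeR adjusted p = 0.161 each). Spread between tumours was small beside the distance between the diets in all 3.

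The block also called Sox4, a transcription factor, and Sdc1, a surface proteoglycan, which are named here after their values were seen. Sox4 stood at 11.8, 11.8 and 20.5 normalised CPM against 52.8, 71.8 and 58.6 (with the block 1.95, edgeR adjusted p = 0.016), and Sdc1 at 8.86, 7.39 and 18.6 against 40.9, 32.9 and 37.4 (with the block 1.71, edgeR adjusted p = 0.0179). Without the block their edgeR adjusted p-values were 0.193 and 0.274. The last gene the block called was S100a8, an abundant neutrophil protein, at 205, 291 and 223 against 54.3, 98.7 and 51.1 (with the block -1.88, edgeR adjusted p = 3.85e-05, without it -1.92 and 0.227, range 3.86e-05 to 0.546). The partner protein S100a9 stood at 242, 263 and 331 against 34.2, 8.98 and 49.9. Both are neutrophil markers, and the 8 neutrophil markers summed to 512 to 662 plain CPM (without TMM scaling) in SD macrophages and 127 to 147 in BD macrophages, with none at 0 in all tumours. In neutrophils themselves this sum was 52140 to 108200. Mesenchymal markers in macrophages summed to 1266 to 1883 in SD and 1331 to 2757 in BD tumours, macrophage markers to 22200 to 33250 and 13260 to 28500, and the 9 T cell markers to 8.28 to 32.8 and 0 to 13.1. The part of such other RNA in the macrophage results was not tested.

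**Figure D2:**
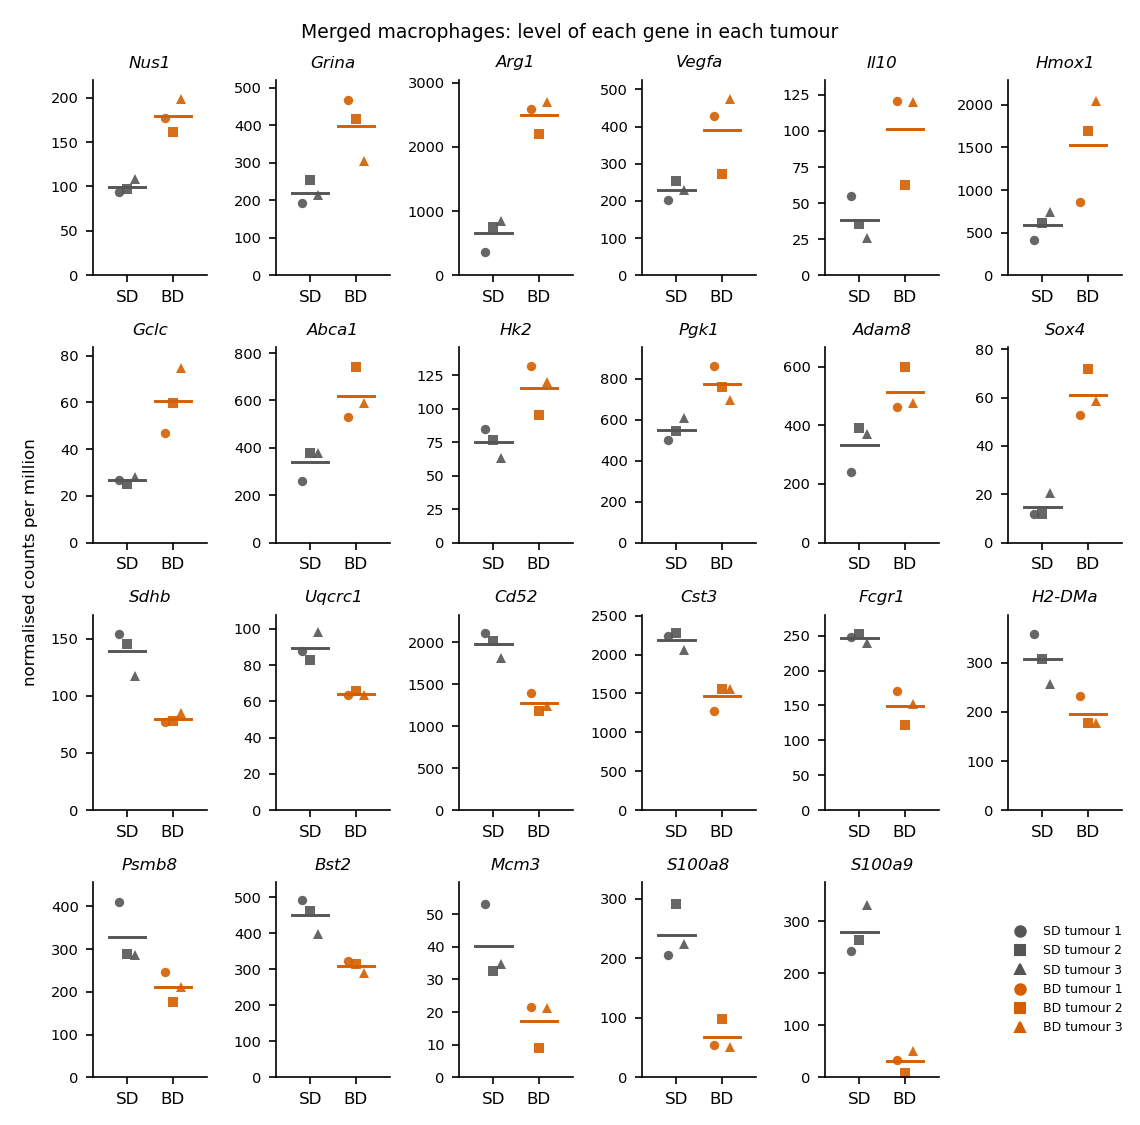
Normalised CPM (vertical axes) of 23 genes in merged macrophages, 1 point per tumour and the group mean as a line, for SD and BD. Arg1, Nus1, Grina, Gclc and Hk2 lie higher and Sdhb, Cd52, Fcgr1 and S100a8 lie lower in all 3 BD tumours.

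Genes of ketone uptake and use were detected in macrophages of both diets, apart from Bdh1, which was near absent. It had 0, 2 and 0 UMIs in the SD tumours and 0, 0 and 1 in the BD tumours. Oxct1, which commits ketone bodies to oxidation, stood at 38.4, 42.9 and 45.5 normalised CPM in the SD tumours and at 32.7, 29.9 and 51.1 in the BD tumours (-0.13 ± 0.25, edgeR adjusted p = 0.906), and Acat1, the last enzyme of the pathway, at 41.4, 31.1 and 37.8 against 37.2, 32.9 and 44.9. For Oxct1 2 BD tumours lay below and 1 above all SD tumours, and for Acat1 the values were interleaved. The monocarboxylate transporter Slc16a3 stood at 120, 160 and 134 against 199, 218 and 155 (0.46 ± 0.18, edgeR adjusted p = 0.40), and Slc16a1 at 12.6, 10.4 and 12.2 against 19.3, 5.98 and 26.2. For Slc16a3 only BD tumour 3 reached the SD range, and for Slc16a1 the BD tumours lay on both sides of it. The ketone list as a whole had 7 of 12 genes positive and a median of 0.02. The histone deacetylases Hdac1 and Hdac2 stood at -0.14 and -0.09 on the log2 scale with overlapping tumours, and Hdac3 at -0.23 ± 0.26 (edgeR adjusted p = 0.836). Genes known to be raised by deacetylase inhibition had 7 of 10 positive (median 0.29). Cdkn1a, the cell cycle inhibitor p21 on that list, stood at 408, 553 and 407 against 641, 718 and 584 (0.51 ± 0.16, edgeR adjusted p = 0.309), higher in all BD tumours. The inflammatory genes Nlrp3, Il1b and Nos2, the chemokine Cxcl10, and the identity genes Mrc1 and H2-Ab1 overlapped between the diets in merged macrophages. Lists of macrophage identity nevertheless leaned lower in BD. Of 8 macrophage markers 1 was positive (median -0.33), and 3 were lower without overlap. Of 13 resident and complement macrophage genes 2 were positive (median -0.33), and 5 were lower without overlap. No gene of either list was higher without overlap or had an unadjusted p under 0.05.

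**Figure D3:**
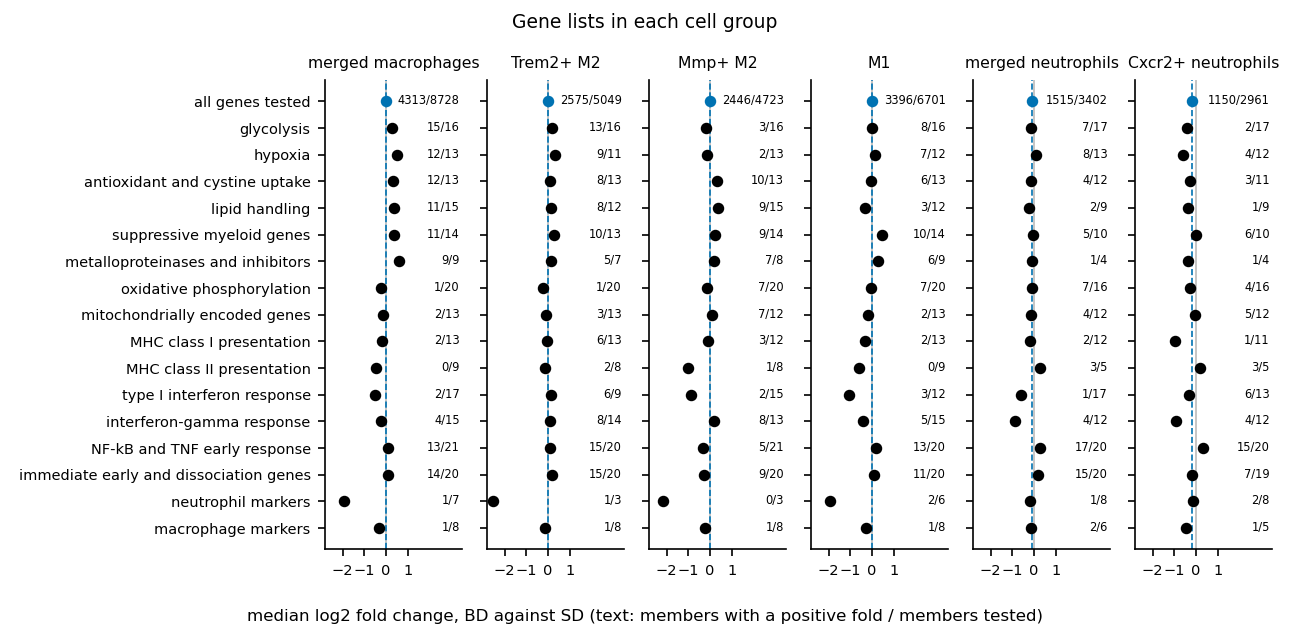
Median log2 fold change, BD over SD (horizontal axes), of 16 gene lists in 6 cell groups. The dashed line is the median of all genes tested in that group and the text gives positive over tested genes. In merged macrophages glycolysis (15 of 16), hypoxia (12 of 13) and antioxidant genes (12 of 13) lie right of it and oxidative phosphorylation (1 of 20) and MHC class II (0 of 9) left of it.

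Tested class by class, the macrophages gave 5 called genes. In Mmp+ M2 macrophages 1 of 4723 genes passed (0.0212%), with 3.9% higher and 4.45% lower at an unadjusted p under 0.05. It was Fabp5 (chr3:10012585-10016610), a carrier of fatty acids inside the cell, at 602, 518 and 372 normalised CPM in the SD tumours and 1285, 1484 and 1663 in the BD tumours. The groups lay far apart. Fabp5 rose by 1.58 ± 0.22 (edgeR adjusted p = 0.000856). The call held under 20 of 21 alternatives and was lost when the hashtag limit was lifted (1.22, edgeR adjusted p = 0.0842, range 1.43e-08 to 0.0842). In Trem2+ M2 macrophages the same gene stood at 406, 520 and 406 against 341, 616 and 364 (-0.03 ± 0.62), and in merged macrophages its fold change of 0.86 became -0.03 without the Mmp+ class.

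In the Mmp+ class Hmox1 stood at 869, 991 and 1374 normalised CPM in the SD tumours and 1943, 3210 and 6180 in the BD tumours (1.80 ± 0.40). With the block, edgeR called 3 genes there, Hmox1 (1.71, adjusted p = 0.00147), Fabp5 (1.58) and Ccl3 (-1.57, adjusted p = 0.00343). Without the block the edgeR adjusted p-values of Hmox1 and Ccl3 were 0.284 and 0.216. Whether tumours of the same number deviate together was not checked in this class, so the blocked calls of these genes are no support. Ccl3, a chemokine for monocytes and T cells, stood at 993, 675 and 378 against 275, 268 and 134. Type I interferon genes had 2 of 15 positive folds in this class (median -0.88), and 6 were lower at an unadjusted p under 0.05. Isg15, a ubiquitin-like product of that response chosen after its values were seen, stood at 315, 807 and 218 against 76.6, 64.9 and 88.0. All BD tumours lay below all SD tumours, as they did in 305 of the 4723 genes of this fit, and they lay above in 295. The number of called genes in this class was 14 without BD tumour 1 and 3 without SD tumour 3.

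In the class named M1, the fit held SD tumours 1 and 3 and BD tumours 1 and 3, since SD tumour 2 had 4 such cells and BD tumour 2 had 1. There 4 of 6701 genes passed (0.0597%), with 4.24% higher and 4.12% lower at an unadjusted p under 0.05. Ptgs2 (chr1:150100031-150108234) stood at 175 and 264 normalised CPM in SD and at 777 and 1336 in BD, and rose by 2.26 ± 0.31 (edgeR adjusted p = 0.0138). Ifitm3, which blocks viral entry, stood at 2216 and 1707 against 949 and 938 and fell by 1.06 on the log2 scale (edgeR adjusted p = 0.0138). Cd300c2, a myeloid surface receptor, stood at 462 and 528 against 240 and 195, and Rrbp1, a ribosome-binding protein of the endoplasmic reticulum, at 708 and 519 against 322 and 270 (edgeR adjusted p = 0.0416 each, both lower). The 2 tumours of each diet did not overlap in any of the 4. With 2 tumours against 2 this was common, as both BD tumours lay above both SD tumours in 1173 of the 6701 genes and below in 1163. Mesenchymal markers summed to 1949 and 2972 plain CPM in M1 macrophages of SD tumours 1 and 3 and to 3350 and 5076 in those of BD tumours 1 and 3, and their part in these calls was not tested. These calls rested on few tumours. Under 19 alternatives Ptgs2 kept its call in 15, Ifitm3 in 14, Rrbp1 in 8 and Cd300c2 in 7, and all 4 were lost with the SD and BD tumours alone and without SD tumour 1. The number called was 9 without SD tumour 3, 8 without BD tumour 1, 2 without SD tumour 1 and 1 without ICB tumour 2 or BD+ICB tumour 1.

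In Trem2+ M2 macrophages, the largest macrophage class, 0 of 5049 genes passed (0%), and 3.29% were higher and 2.93% lower at an unadjusted p under 0.05 by edgeR. DESeq2 called none. Abca1 stood at 302, 444 and 411 normalised CPM in the SD tumours and at 666, 783 and 759 in the BD tumours (0.93 ± 0.23, edgeR adjusted p = 0.762), and Il10 at 74.4, 32.4 and 29.6 against 169, 97.2 and 168 (1.71 ± 0.61). Neither overlapped. Type I interferon genes were positive in 6 of 9 here (median 0.15), the other way from the Mmp+ and M1 classes, in the latter of which 3 of 12 were positive (median -1.05). Oxidative phosphorylation had 1 of 20 genes positive in Trem2+ and 7 of 20 in each of the Mmp+ and M1 classes.

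In all neutrophils as one 0 of 3402 genes passed (0%; smallest edgeR adjusted p 0.575), with 61 higher (1.79%) and 109 lower (3.2%) at an unadjusted p under 0.05, and DESeq2 called 1. The BD tumours held 15, 28 and 19 neutrophils against 107, 110 and 223 in the SD tumours, so that many values rest on a few UMIs. All BD tumours lay above all SD tumours in 4.17% of genes and below in 9.29%. The gene that DESeq2 called was Fbxo30, an adaptor of ubiquitin ligases, at 46.3, 25.9 and 41.0 normalised CPM against 186, 107 and 217 (2.09 ± 0.50, edgeR adjusted p = 0.575, range 0.0176 to 1). Its BD levels came from 6, 6 and 9 UMIs.

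Genes of the early NF-kB and TNF response were mostly positive in neutrophils, 17 of 20 with a median of 0.29, where 1515 of all 3402 genes were positive and their median was -0.08. Tnf itself stood at 436, 1020 and 1044 normalised CPM in the SD tumours and at 1210, 2934 and 1836 in the BD tumours (1.28 ± 0.41, edgeR adjusted p = 0.814). BD tumour 1 was closest to the SD tumours and BD tumour 2 farthest. Nfkbiz, a nuclear modulator of NF-kB, stood at 852, 1352 and 1294 against 1862, 2329 and 1981 (0.82 ± 0.24, edgeR adjusted p = 0.645), and Tnfaip3, which switches the pathway off, at 547, 765 and 787 against 993, 1102 and 1329 (0.71 ± 0.24). Neither overlapped. Il1a, a cytokine of the interleukin-1 family, stood at 166, 296 and 311 against 1055, 373 and 556, and Jun, an immediate early factor that tissue dissociation also raises, at 1218, 1053 and 1070 against 1427, 2258 and 1812. Of 20 immediate early and dissociation genes 15 were positive (median 0.18). The part of dissociation in these differences was not tested.

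Interferon genes lay lower in BD neutrophils, with 1 of 17 type I genes positive (median -0.62) and 2 of 12 MHC class I genes (median -0.18). Zbp1, a sensor of nucleic acids, had 26, 14 and 32 UMIs in the SD tumours and 1, 0 and 0 in the BD tumours. Ifitm3 stood at 1457, 669 and 958 normalised CPM against 838, 480 and 411, which overlapped by BD tumour 1. The deposited BD cells held no Ifit+ neutrophils, whereas this class made up 7.48%, 0.909% and 3.14% of SD neutrophils. With the hashtag limit lifted, 9 of 17 type I genes were positive (median 0.12), so that the direction of this list in neutrophils turned. The NF-kB list then had 16 of 20 positive (median 0.21).

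Other neutrophil genes were given by their low p. Lgals3, a galectin of activated myeloid cells, stood at 813, 1426 and 1092 normalised CPM in the SD tumours and at 2172, 1938 and 1836 in the BD tumours (0.83 ± 0.24, edgeR adjusted p = 0.645). Tspo, a cholesterol transporter of the mitochondrial membrane, stood at 520, 809 and 533 against 279, 356 and 145 (-1.22 ± 0.33, edgeR adjusted p = 0.619). Both were separate between the diets. Nek6, a mitotic kinase, had 28, 12 and 38 UMIs in the SD tumours and none in the BD tumours, and Mindy1, a deubiquitinase, 19, 15 and 34 and none. One UMI in the BD neutrophils was worth 33.0, 17.5 and 22.4 plain CPM, so that a level near these values could not be seen. Glycolysis (7 of 17 positive, median -0.12) and hypoxia (8 of 13, median 0.09) gave medians near that of all genes in neutrophils, and the difference from macrophages was not tested. Macrophage markers in merged neutrophils summed to 635 to 699 plain CPM in SD and 506 to 859 in BD tumours, mesenchymal markers to 958 to 1042 and 991 to 1205, and all 4 NK cell markers were at 0. The part of such RNA was not tested.

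**Figure D4:**
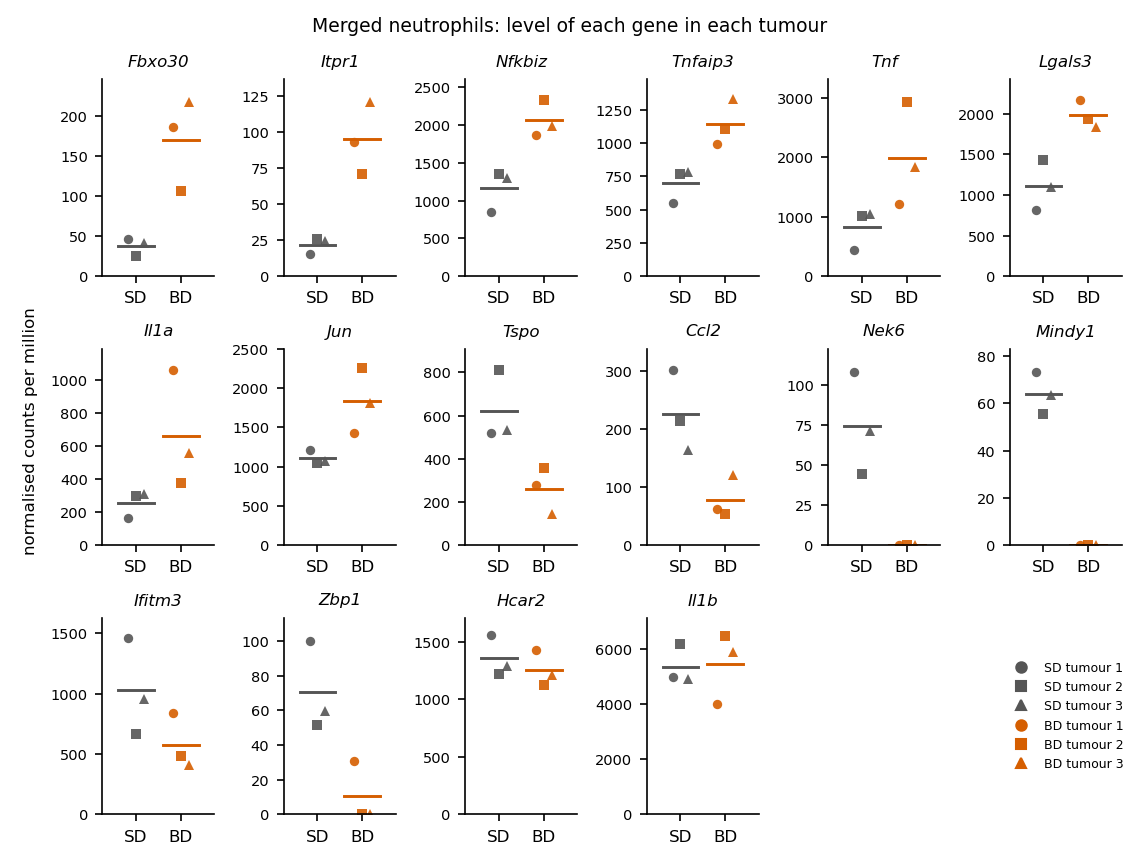
Normalised CPM (vertical axes) of 16 genes in merged neutrophils, 1 point per tumour and the group mean as a line, for SD and BD. Nfkbiz, Tnfaip3, Tnf and Lgals3 lie higher and Tspo and Ccl2 lie lower in all 3 BD tumours, while Hcar2 and Il1b overlap.

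Hcar2 (chr5:123863570-123865516), the receptor for β-hydroxybutyrate, overlapped between the diets in neutrophils when the classes were merged. Its plain CPM was 1474, 1168 and 1244 in the SD tumours and 1519, 1100 and 1121 in the BD tumours (log2 fold change -0.13 ± 0.23, edgeR adjusted p = 0.989). In Hilpda+ neutrophils it stood at 2224, 1540 and 1963 plain CPM against 2121, 2217 and 2308. In Cxcr2+ neutrophils it stood at 1053, 943 and 757 against 842, 350.2 and 162, and the BD values came from 12, 12 and 4 UMIs in 8, 15 and 12 cells. BD tumour 1 lay inside the SD range and the other 2 BD tumours below it.

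The edgeR fit of Cxcr2+ neutrophils left out BD tumour 1, which had 8 such cells, and Hcar2 was its sole call among 2961 genes (0.0338%), where 1.18% were higher and 5.2% lower at an unadjusted p under 0.05. Hcar2 fell by 1.90 on the log2 scale in that fit (edgeR adjusted p = 0.0403, n = 3 and 2 tumours). With tumours of 5 or more cells admitted, which brings BD tumour 1 in, the fold change was -1.31 (edgeR adjusted p = 0.73). With the hashtag limit lifted, the values were 1045, 827 and 670 plain CPM against 1541, 525 and 420.2 in 38, 49 and 25 BD cells, and the fold change was 0.09 (edgeR adjusted p = 0.994). The highest and the lowest tumour were then both BD tumours. The call held under 2 of 20 alternatives, with adjusted p-values from 0.00106 to 0.994, and was lost when any 1 of the 11 tumours of the fit was left out. All genes of this fit had a median of -0.18, which was -0.04 with RLE size factors, so fold changes of this class are to be read relative to that shift. The difference of the diet effects on Hcar2 in Cxcr2+ neutrophils, without minus with blockade, was -2.57 on the log2 scale (edgeR interaction, adjusted p = 0.00434), the 1 call among 2961 genes (0.0338%). It was lost with tumours of 5 or more cells admitted (-2.03, edgeR adjusted p = 0.14), without BD tumour 3 (-2.22, edgeR adjusted p = 0.115) and with the hashtag limit lifted (-0.66, 0.963). In merged macrophages Hcar2 stood at 14.0 to 35.7 plain CPM in SD and 0 to 22.3 in BD tumours, and T cells had 0 UMIs in all 6 tumours. It reached 254 plain CPM in NK cells of SD tumour 3 (9 UMIs) and 574 in mesenchymal cells of BD tumour 2 (8 UMIs in 2 cells).

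**Figure D5:**
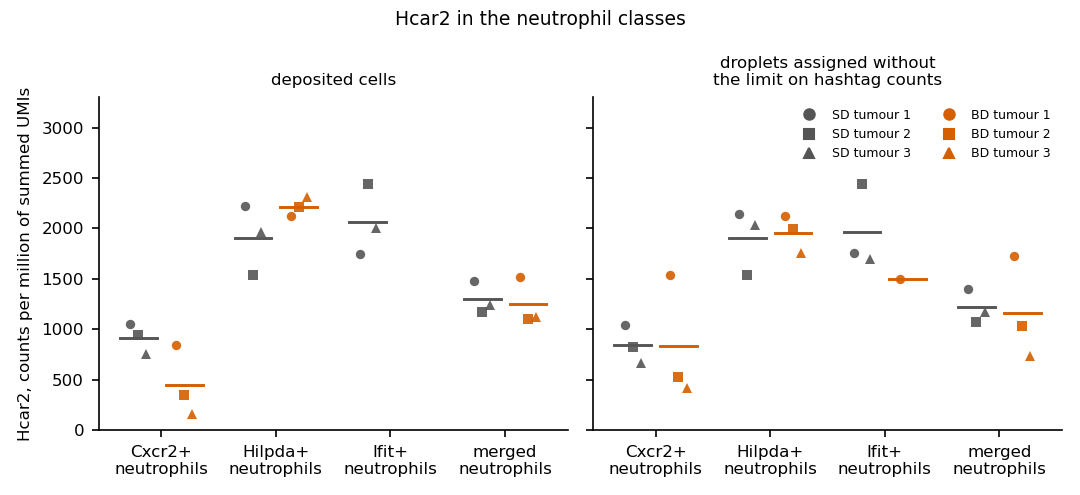
Hcar2 in plain CPM (vertical axes) in 3 neutrophil classes and in merged neutrophils, 1 point per tumour, for SD and BD. The left panel shows deposited cells and the right panel droplets assigned without the hashtag limit. In Cxcr2+ neutrophils BD tumours 2 and 3 lie below the SD tumours on both sides and BD tumour 1 does not.

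T cells were too few for a gene test. The BD tumours held 23, 1 and 3 T cells and the SD tumours 15, 10 and 18, and 1 UMI in BD tumour 2 was worth 299 plain CPM, so levels are given with no test. Gzmb, a granzyme with which cytotoxic cells kill, stood at 206, 580 and 440.2 plain CPM in the SD tumours and at 1659, 1196 and 613 in the BD tumours, from 19, 32 and 29 and from 191, 4 and 12 UMIs. The only T cell of BD tumour 2 was of the regulatory class. Gzma had 865 UMIs in BD tumour 1, 1 in BD tumour 3 and 1 in all SD tumours, and Gzmc 337 UMIs in BD tumour 1 and 2, 8 and 10 in the SD tumours. These 2 genes were high in BD tumour 1 alone. Gzmf, a further granzyme, had 236 UMIs in SD tumour 2, 224 in BD tumour 1 and 0 elsewhere. Granzymes are close paralogs, and reads of one could be counted for another. In NK cells Gzmb lay the other way, at 1083, 48.9 and 424 plain CPM in the SD tumours and 103 and 0 in BD tumours 1 and 3. These BD values came from 6 and 0 UMIs in 8 and 3 cells, and BD tumour 2 held no NK cell. BD tumour 1 lay inside the SD range, and the difference was not tested.

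Genes of naive and memory T cells did not all lie the same way. S1pr1, the receptor for leaving tissues, had 15, 9 and 12 UMIs in SD and 2, 0 and 1 in BD T cells, and Klf2, the factor that drives it, 26, 12 and 11 and 7, 0 and 0. Il7r, the receptor for a survival cytokine, stood at 86.9, 145 and 304 plain CPM in SD and at 469, 897 and 204 in BD T cells, and the homing receptor Ccr7 at 402, 127 and 288 against 191, 0 and 715. S1pr1 stood at 163 to 182 plain CPM in SD and 17.4 in BD tumour 1, and Klf2 at 167 to 282 and 60.8. BD tumour 3 had 1 and 0 UMIs of these genes in 3 cells. In BD tumour 2, with 1 cell, 1 UMI was worth 299 plain CPM. That is above every SD level of both genes, so its counts of 0 cannot show a lower level. Il7r and Ccr7 overlapped. The regulator Foxp3 had 2, 6 and 7 UMIs against 19, 2 and 0, where the classes differed too. Regulatory T cells were 1, 1 and 6 of the SD and 10, 1 and 0 of the BD T cells, and CD8 T cells 11, 8 and 12 and 9, 0 and 1. The exhaustion receptor Pdcd1 had 3, 11 and 9 UMIs against 33, 0 and 4, Ifng 5, 3 and 2 against 9, 0 and 0, and Cd8a 7, 11 and 12 against 41, 0 and 1. BD tumour 1 supplied nearly all BD counts of these genes. The T cell markers summed to 2845 to 3778 plain CPM in SD and 5160 to 6333 in BD tumours, and macrophage markers stood at 4819 plain CPM in the T cells of SD tumour 2 against 0 to 243 in the other 5.

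Proliferating cancer cells and mesenchymal cells could be compared only with the hashtag limit lifted, because the deposited BD tumours held 2, 0 and 0 of the former and 8, 2 and 1 of the latter. In mesenchymal cells 0 of 10770 genes passed by edgeR (0%), with 189 higher and 160 lower at an unadjusted p under 0.05, and in Hilpda+ neutrophils 0 of 1197 (0%), with 18 higher and 36 lower. In proliferating cancer cells 2 of 10945 genes passed (0.0183%), in a fit without BD tumour 2. Malat1, an abundant nuclear RNA, stood at 4355, 4246 and 4901 normalised CPM in the SD tumours and at 2258 and 2356 in BD tumours 1 and 3, and fell by 0.97 on the log2 scale (edgeR adjusted p = 0.000145). Gm42418, a predicted gene that overlaps ribosomal RNA and can collect its reads, stood at 10613, 10704 and 10123 against 7141 and 6811 and fell by 0.59 (edgeR adjusted p = 0.00533). The diets lay well apart in both. Malat1 kept its call when each tumour was left out in turn (highest adjusted p 0.0237), whereas Gm42418 kept it in 1 of 5 such fits.

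Outside Hcar2, the edgeR fit without a block and with the filter on low counts called no gene for a diet effect that differed between tumours with and without blockade. It called 0 genes (0%) in M1, Mmp+ and Trem2+ macrophages and in merged neutrophils and macrophages, with 467, 233, 239, 242 and 505 genes at an unadjusted p under 0.05, and DESeq2 was not run on it. With the replicate block it called 1 gene each in Mmp+ macrophages, merged macrophages and merged neutrophils, and with no filter on low counts 25 in M1 and 31 in merged macrophages. In merged macrophages the diet effect on Arg1 was larger by 1.87 ± 0.58 without blockade than with it (edgeR adjusted p = 0.78), and that on Il10 by 1.98 ± 0.62 (edgeR adjusted p = 0.776). Cd52 had the smallest unadjusted p of that test in merged macrophages, with a difference of -0.93 ± 0.19 (edgeR adjusted p = 0.397).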

How the data were processed

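UMI counts per gene and barcode come from Cell Ranger 6.1.1, per the file headers, and the submitters' processing notes add R 4.1 and the mm10 build. Hashtag matrices were deposited as counts by lane, with reads or UMIs not stated. For each cell a deposited table holds its class, its tumour and its percent of mitochondrial UMIs (all under 5), with no record of how classes were clustered or named. The deposited counts were used as they stand. The libraries have 1931 barcodes in common.

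Counts were summed per tumour over a class, or over merged neutrophils, macrophages and T cells. Tumours with at least 10 cells entered edgeR 4.0.16 (R 4.3.3; quasi-likelihood test with TMM, filterByExpr and the robust option), fitted on all 4 groups. Adjusted p-values are Benjamini-Hochberg values over all genes of a fit, with a threshold of 0.05. The fit was tested on simulated data with known fold changes. It recovered 45% of 2-fold changes in merged macrophages, 17.5% in merged neutrophils and 22.4% in Mmp+ macrophages. Of 4-fold changes it recovered 85.7%, 71.6% and 75.8%. A count of 0 called genes therefore does not show that no gene changed. Shares were compared by two-sided exact permutation over tumours. In the own demultiplexing a droplet took the class of its 15 nearest neighbours (30 principal components, 2000 genes), which returned the deposited class for 80.8% of deposited cells. No doublet caller was run. Alternatives were DESeq2 1.42.0, size factors by RLE, no low-count filter, only SD and BD tumours, other minimum cell numbers, cells with at least 1000 UMIs, stricter hashtag calls, droplets of the own demultiplexing, a block for replicate number, leaving out each tumour or merged class, other denominators, and edgeR on cell numbers.

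In merged macrophages SD and BD tumours of the same replicate number deviated together from their group means (r = 0.45, 0.28 and 0.14 over 2663 genes, a description across genes), so blocked values stand beside results there. Tumours of other numbers gave r from -0.44 to 0.19, and SD tumour 3 went with BD tumour 2 (r = 0.19) more than with BD tumour 3 (r = 0.14). The blockade tumours, which the block also covers, and single classes were not checked in this way. This pairing comes from the data and not from the labels.

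The members, the 39 gene lists and the tests were chosen with earlier results of these data known. Named genes were the called genes, up to 10 per direction, the 5 with the smallest unadjusted p per direction in merged cells, up to 4 members of a list, and 25 fixed genes. Results of 2 genes that the rule names are not reported here. Gene coordinates are from RefSeq on GRCm38.p6. Intervals and the share that a count of 0 allows (3 counts) cover counting error only.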

Additional observations from a re-analysis of the deposited data

Results flagged for a closer look

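The diet effect on Hcar2 in Cxcr2+ neutrophils differed between tumours without and with blockade by -2.57 on the log2 scale (edgeR interaction, adjusted p = 0.00434), which is why it is listed here. The BD level in that fit rests on 12 and 4 UMIs in BD tumours 2 and 3. The fold difference kept its sign under 18 of 18 alternatives, from -3.32 to -0.66, and its call under 15 of them.

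Malat1 (-0.97 on the log2 scale) and Gm42418 (-0.59) are listed because they passed in proliferating cancer cells only among droplets assigned without the limit of 500 hashtag counts, which take in droplets outside the deposited table. That fit compares 3 SD with 2 BD tumours. Over all droplets assigned in this way the median hashtag count was 182 to 381 in SD and 356 to 448 in BD tumours, and its part in the difference was not tested. Groups of 3 tumours were not searched for outlying samples.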

How the results depend on the processing

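Counts of called genes moved with the filter and the tool. DESeq2 called 0 genes in Cxcr2+ neutrophils, 16 in M1, 15 in Mmp+ and 36 in merged macrophages and 1 in merged neutrophils. Without a filter on low counts the numbers were 4 in Cxcr2+ and 3 in merged neutrophils and 41 in M1, 26 in Mmp+, 1 in Trem2+ and 91 in merged macrophages. RLE size factors, a minimum of 5 cells, the stricter hashtag rule and own demultiplexing each gave 0 in Cxcr2+ neutrophils, and own demultiplexing gave 7 in M1, 0 in Mmp+ and 1 in Trem2+ macrophages. With SD and BD tumours only, 0 genes passed in M1 and 3 in merged macrophages. The replicate block gave 2 in M1, 3 in Mmp+ and 6 in merged macrophages. In merged neutrophils, where tumours of the same number did not all deviate together (r = 0.10, 0.23 and -0.07), it gave 1. Merged neutrophils without the Hilpda+ class gave 1, and merged macrophages 2 without the M1 and 4 without the Trem2+ class.

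For the difference of the diet effects, no filter gave 2 in Cxcr2+ neutrophils, 25 in M1, 1 in Mmp+, 1 in Trem2+ and 31 in merged macrophages. A minimum of 5 cells gave 0, the stricter hashtag rule 3 and own demultiplexing 0 in Cxcr2+ neutrophils, and own demultiplexing 2 in Trem2+ and 1 in merged macrophages. The block gave 1 each in Mmp+ macrophages, merged macrophages and merged neutrophils, and the latter gave 2 without the Hilpda+ class.

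Leaving out 1 tumour gave 0 to 1 called genes in Cxcr2+ neutrophils, 1 to 9 in M1, 1 to 14 in Mmp+ (14 without BD tumour 1), 0 to 2 in Trem2+ (2 without SD tumour 2), 0 to 3 in merged macrophages (3 without SD tumour 2) and 1 to 3 in cancer cells. For the difference of the diet effects it gave 0 to 2, 0 to 9 (9 without SD tumour 3), 0 to 5 (5 without BD tumour 1) and 0 to 1 in the first 4, and 0 to 2 in merged neutrophils (2 without ICB tumour 1). Differences in share ran from -3.13 to 1.58 points for NK cells, -1.56 to 1.53 for T cells (2.27 by own demultiplexing without BD tumour 2), -0.0939 to 1.03 for monocytes (1.10 likewise) and -0.166 to 3.02 for proliferating immune cells.

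Some directions turned. Own demultiplexing gave 0.566 points for NK cells (1.58 without BD tumour 2), 7.24 for neutrophils and 0.414 for Ifit+ neutrophils among neutrophils, and -0.260 for proliferating immune cells among immune cells. T cells stood at -0.239 points of immune cells and -1.14 of cells other than neutrophils. On the log2 scale own demultiplexing turned Hcar2 in Cxcr2+ neutrophils (0.091) and Zbp1 (0.15), Hp (0.10), Lyz2 (0.098) and Cd80 (0.16) in merged neutrophils. The stricter hashtag rule turned Cd274 in Cxcr2+ neutrophils (-0.76), and leaving out a class turned Ccl4 in merged neutrophils (-0.21, without Hilpda+) and Fabp5 in merged macrophages (-0.026, without Mmp+). EdgeR on cell numbers relative to the tumour's total gave -2.48 for mesenchymal and -3.03 for cancer cells and called 5 classes. The cause was not tested for any of these. Own demultiplexing in classes with too few deposited cells, over immune cells and without BD tumour 2, and leaving out tumours in cancer cells, were chosen after seeing the data. A minimum of 30 cells left too few tumours in Cxcr2+ neutrophils, M1, Mmp+ macrophages and merged neutrophils, and T cells could be tested under no setting. Few cells in BD tumours limit what neutrophil values can show.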

Other observations

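Arg1 UMIs were also counted in droplets of other classes, too few for a test, and whether this RNA came from those cells was not tested. In the class named Nos2+ dendritic cells it had 2, 1 and 4 UMIs in 5, 2 and 2 cells of the SD tumours and 218 UMIs in 19 cells of BD tumour 1, or 42.3, 128 and 213 against 1485 plain CPM, and the other BD tumours held no such cell. In proliferating immune cells it stood at 182, 11.1 and 528 plain CPM in the SD tumours and at 575, 2235 and 1729 in the BD tumours, which held 15, 4 and 6 of these cells. Mrc1, a macrophage gene, stood at 239, 445 and 580 and at 112, 210.4 and 354 plain CPM in the proliferating immune cells, and at 263, 244 and 489 and at 255, 556 and 434 in merged macrophages.

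Oxct1 levels across cell types are given with the cells of a diet pooled, and with no test. It stood at 239 plain CPM in SD and 354 in BD cancer cells, from 596 and 65 UMIs, at 182 and 184 in mesenchymal cells, at 41.5 and 38.8 in macrophages and at 16.2 and 15.1 in neutrophils. Per diet, the order of the 4 cell types was the same.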
